A study of Mus musculus with 14 samples.

Results

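Liver sinusoidal endothelial cells (LSECs) line the hepatic capillaries, and 10 genes of fatty acid binding and lipid uptake were followed in them before and after acute toxic injury. The set was drawn up by gene name for a shared role, with earlier results of these data known: the fatty acid binding proteins Fabp4, Fabp5 and Fabp1, the uptake genes Cd36 and Gpihbp1, the lipases Lpl, Lipc and Lipg, the nuclear receptor Pparg and the lipid droplet coat gene Plin2. All 10 were found among the 54524 genes of the count matrix through the GENCODE annotation of the mouse genome build GRCm38, and all 10 were among the 26626 genes that passed the filter on low counts. RNA was taken from male Balb/c mice of 10 to 12 weeks, and the LSECs had been sorted as CD32+ and F480- live cells without the autofluorescence of stellate cells, and per the study's methods also as CD45-. The healthy group (n = 4) was not injected, and the other groups were collected at day 1 (n = 2), day 3 (n = 4) and day 7 (n = 4) after 1 intraperitoneal injection of CCl4, a toxin of hepatocytes, in mineral oil at 0.5 µL per g body weight. Day 1 had fewer samples because, per the study, 2 of that day were left out for low RNA quality. No sample here came from mice given mineral oil alone, so CCl4 and its vehicle cannot be told apart. The labels do not say how many mice went into a sample, so p-values measure the spread between these samples, which may in part be technical.

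Fatty acids reach an endothelial cell from lipoproteins and from albumin. LPL releases them from lipoproteins in the capillary, and GPIHBP1 is the endothelial protein that carries LPL to the capillary lumen and holds it there. CD36 takes fatty acids up at the membrane, the FABP proteins bind them in the cytoplasm, PPARγ is a nuclear receptor that they activate, and perilipin 2 coats the droplets in which they are stored. Liver capillaries differ from those of muscle and fat in that hepatic lipase, the product of Lipc, is made by hepatocytes and acts in the sinusoid. FABP4 is known from adipocytes, macrophages and capillary endothelium, FABP5 from many cell types, and FABP1 is the abundant form of hepatocytes.

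FABP4 and FABP5 are products of genes on chromosome 3, Fabp4 (ENSMUSG00000062515, chr3:10204088-10208576, minus strand) and Fabp5 (ENSMUSG00000027533, chr3:10012548-10016607, plus strand). The aligned coding sequences were identical at 60.6% of 396 bases. A stretch around their longest shared run is shown because counts of paralogs can be mixed up where sequences match. Both lines are GENCODE coding sequence, and the capitals mark the run of 12 identical bases.
Fabp4, coding bases 75 to 146: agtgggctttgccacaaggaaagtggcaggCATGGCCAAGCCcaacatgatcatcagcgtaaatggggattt
Fabp5, coding bases 81 to 152: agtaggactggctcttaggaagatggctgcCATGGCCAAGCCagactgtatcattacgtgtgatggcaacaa
No word of 50 bases of the Fabp4 transcript occurred in another gene's transcripts. Of the Fabp5 transcript, 21.1% of such words occurred elsewhere, 184 of them in Gm6166. The counts of Fabp5 are therefore uncertain. The shares were 4.89% for Plin2, 3.98% for Lpl and 0 for the other 7 genes. Words were sought in the direction of transcription only. Matches to transcripts of the opposite strand, which libraries that do not mark strand could also mix in, were not looked for.

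The upstream sequences of Fabp1 and Plin2 are shown because the first followed hepatocyte genes across the samples and the second was higher after injury, as described later. RefSeq promoters (GRCm38.p6) were at hand for 5 of the 10 genes. Each stretch ends before the first base of the GENCODE gene. Capitals mark, in Fabp1, a C/EBP type match (TTGCNNAA, reading TTGCTGAA) and a direct repeat of the AGGNCA element of nuclear receptors with 1 base between the copies, on the other strand, and in Plin2 a CCAAT box.
Fabp1, chr6:71199629-71199826, plus strand: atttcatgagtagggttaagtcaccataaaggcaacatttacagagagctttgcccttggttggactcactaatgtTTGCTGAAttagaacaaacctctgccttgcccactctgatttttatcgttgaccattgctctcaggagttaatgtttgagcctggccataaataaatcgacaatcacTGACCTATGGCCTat
Plin2, chr4:86670061-86670309, minus strand: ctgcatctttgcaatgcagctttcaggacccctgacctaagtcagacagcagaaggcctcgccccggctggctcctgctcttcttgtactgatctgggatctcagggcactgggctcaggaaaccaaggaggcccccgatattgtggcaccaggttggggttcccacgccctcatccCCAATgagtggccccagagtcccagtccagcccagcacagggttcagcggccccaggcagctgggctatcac
Counted from the RefSeq start, the repeat in Fabp1 lay at bases -67 to -55, the C/EBP type match at -174 to -167, and the CCAAT box of Plin2 at -73 to -69. On either strand, the repeat occurred in 0.381% of the 32817 promoters of 300 bases, the C/EBP type match in 10.8% and a CCAAT box in 37.4%. These are matches of letters, not binding sites.

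Total counts per sample ranged from 46401496 to 103912264. Every level below is in CPM, counts scaled to the TMM-adjusted library total, and every one of the 10 genes exceeded the limit of detection of 3 counts, at most 0.0661 CPM, in each sample. The summed 12 LSEC markers, among them Stab2 and Lyve1, were 18300 to 22600 CPM in healthy samples and 11300 to 16700 CPM after injury. They did not move together. In the edgeR test described below, Lyve1 and Cdh5 were called higher at day 1, and Dnase1l3 and Kdr lower. At day 3, Lyve1 was called higher, and Dnase1l3 and Fcgr2b lower. Healthy replicate 4 stood apart with 10600 CPM of 12 summed hepatocyte markers, against 242 to 477 CPM in the other healthy samples. Healthy replicate 1 had 382 CPM of 12 Kupffer cell and macrophage markers, against 1640 to 2290 CPM in the others. At day 3, replicates 1 and 2 held 13400 and 8140 CPM of 10 monocyte and neutrophil markers, and replicates 3 and 4 held 1560 and 1430 CPM. Day 3 replicate 4 had the fewest genes detected, 22986, against 27283 to 34768 in the other 13 samples.

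Per kb of transcript, the scale on which genes can be compared, Gpihbp1 was the highest of the 10 genes in healthy LSECs at 4086 ± 1082 CPM per kb (SD, n = 4). Fabp4 followed at 1192 ± 344 CPM per kb. The next means were 524 ± 896 for Fabp1, 319 ± 83.8 for Fabp5, 201 ± 39.6 for Cd36 and 114 ± 18.9 for Plin2. Below these came Lpl at 7.76 ± 3.89, Pparg at 6.76 ± 0.967, Lipc at 2.41 ± 4.03 and Lipg at 0.262 ± 0.135 CPM per kb. The place of Fabp1 rested on healthy replicate 4: without it the means were 76.0 ± 28.0 for Fabp1, below Plin2 at 105 ± 1.25, and 0.398 ± 0.123 CPM per kb for Lipc (SD, n = 3). Neighbours in this order whose healthy samples overlapped were Fabp4 and Fabp1, Fabp1 and Fabp5, Fabp5 and Cd36, Lpl and Pparg, Pparg and Lipc, and Lipc and Lipg. At day 1, Fabp4 was the highest at 5854 ± 72.1 CPM per kb (n = 2), above Gpihbp1 at 3149 ± 836. At day 7, the levels of these genes were 858 ± 226 and 1369 ± 305 CPM per kb (n = 4).

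**Figure D1:**
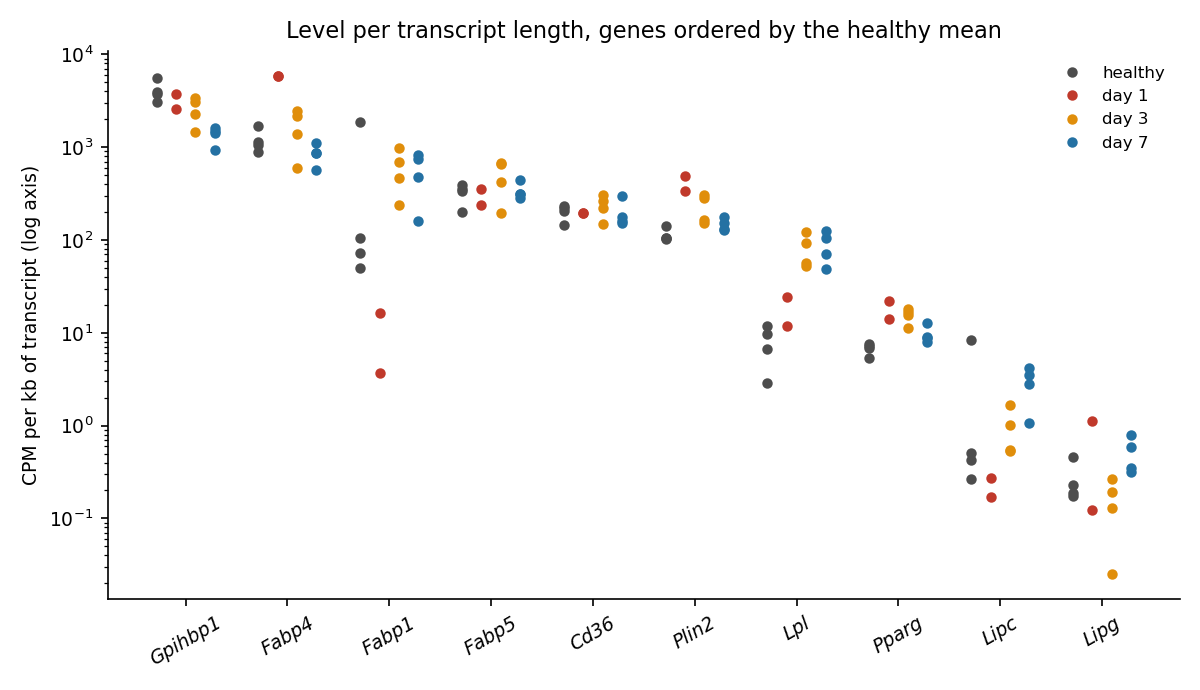
Level of each gene per kb of its transcript, in CPM per kb on a log axis, with 1 point per sample coloured by group and genes ordered by their healthy mean. Gpihbp1 led in healthy samples at 4086 CPM per kb on average and Fabp4 at day 1 at 5854 CPM per kb, while Lipg lay below all others in the healthy mean.

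The first question was which of these genes differed from healthy LSECs at each time. At day 1, 3 of the 10 genes were called by edgeR's quasi-likelihood test at an adjusted p under 0.05 over all genes tested, all of them higher: Fabp4, Plin2 and Pparg. Over all 26626 genes, 4.06% were called. At day 3, 3 were called, all higher (Lpl, Pparg and Plin2), where 7.19% of all genes were called. At day 7, 2 were called, Lpl higher and Gpihbp1 lower, where 3.18% of all genes were called. The median log2 fold change of the 10 genes was 0.59 at day 1, 0.35 at day 3 and 0.18 at day 7, beside medians over all genes tested of -0.03, 0.18 and 0.02. At an unadjusted p under 0.05, the counts were 6, 4 and 3 of the 10 genes, with no share of all genes at that threshold given here. The 3 comparisons share the same healthy samples. In sorted bulk samples, a change in the share of a cell type and a change of RNA per cell cannot be told apart.

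**Figure D2:**
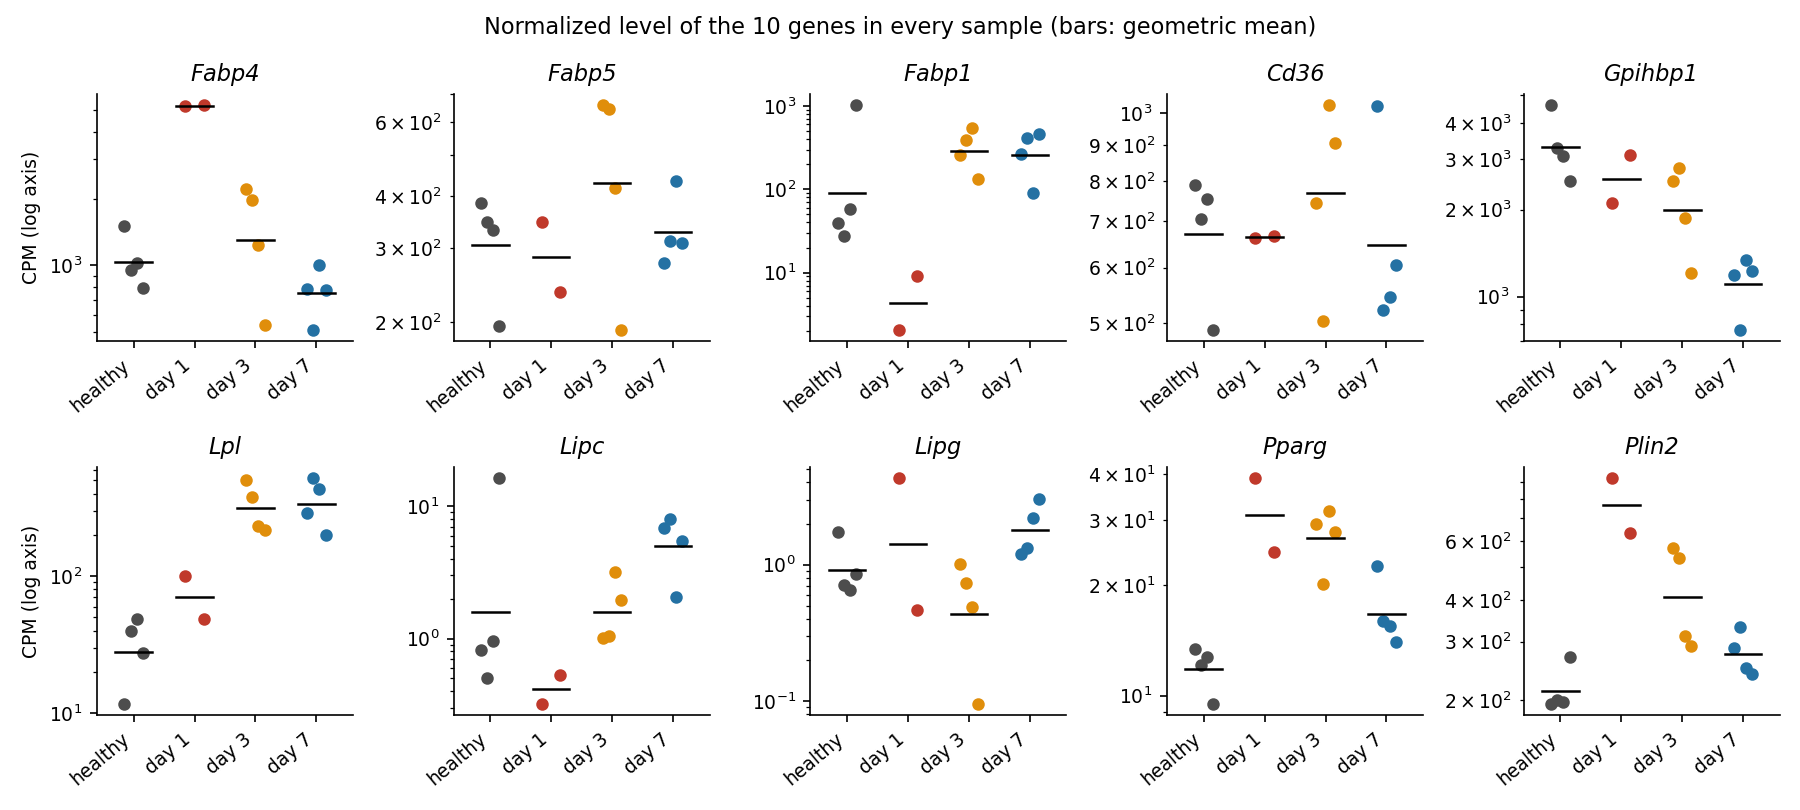
CPM of the 10 genes on log axes with 1 point per sample, where bars mark the geometric mean of a group (n = 4, 2, 4 and 4). The 2 day 1 samples of Fabp4, 5199 and 5290 CPM, lay above all other samples, and the 4 day 7 samples of Gpihbp1, 765 to 1340 CPM, lay below all healthy ones.

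Fabp4, the fatty acid chaperone, rose at day 1 and fell again by day 3. Healthy samples held 1506, 958, 1020 and 787 CPM. Those of day 1 held 5199 and 5290 CPM. Both lay above every other sample of the series. At day 3, the samples held 2203, 1963, 1234 and 537 CPM, and at day 7 they held 783, 511, 1005 and 777 CPM. The day 3 samples ran from below to above the healthy range, and the day 7 samples overlapped it. Fabp4 was 4.91-fold higher at day 1 than in healthy LSECs (log2 fold change 2.30, SE 0.43, edgeR adjusted p = 0.00859). From day 1 to day 3 it fell by 1.82 on the log2 scale (SE 0.43, edgeR adjusted p = 0.0399). Leaving out day 1 replicate 1 put the day 1 adjusted p at 0.0676, with a log2 fold change of 2.29. The fall to day 3 lost its call without any of 5 samples in turn (healthy replicates 2 and 3, either day 1 sample, or day 3 replicate 3), where its adjusted p ran from 0.0525 to 0.195. It was 0.0812 with the replicate number as a block and 0.157 in a fit of the 2 groups alone.

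The day 3 samples with more Fabp4 were replicates 1 and 2, which also held more monocyte and neutrophil markers. In the day 1 samples, this marker sum was 8090 and 4370 CPM, beside nearly equal Fabp4. At day 7 it was 4310 to 9830 CPM, beside Fabp4 within or under the healthy range. S100a9, a neutrophil gene of this list, did not follow that sum. It was 9.99 to 81.7 CPM in healthy samples, 3690 and 1600 CPM at day 1, 2110, 1180, 23.5 and 7.05 CPM at day 3, and 46.5 to 90.0 CPM at day 7. It was high in both day 1 samples and in the day 3 samples with more Fabp4, and near its healthy level at day 7. Among the high samples it did not follow Fabp4. Day 3 replicate 1 held 2110 CPM beside Fabp4 at 2203 CPM, and day 1 replicate 2 held 1600 CPM beside Fabp4 at 5290 CPM. Single values of the other markers on this list are not shown. S100a9 was picked from the 10 markers outside the rule by which genes were named. It was not called by edgeR at any day, and DESeq2 called it at days 1 and 3. Of these 10 markers, 3 were called higher at day 1, 4 at day 3 and 1 at day 7. The part of such cells in the Fabp4 level was not tested. Fabp4 is also known from capillary endothelium, and 10 markers of continuous endothelium were read beside it. The list is not limited to capillary genes. It includes Vwf and Vwa1, which the study places in its signature of damaged LSECs, so it does not separate other endothelium from LSECs. The markers summed to 1430 to 1580 CPM in healthy and 1680 and 2280 CPM in day 1 samples. The sums were 1240 to 1920 CPM at day 3 and 1100 to 1360 CPM at day 7. Of the 10, 1 was called higher and 1 lower at day 1, 4 higher and 1 lower at day 3, and 1 higher at day 7. Their part in the Fabp4 level was not tested. The 4 adipocyte markers summed to at most 1.09 CPM in any sample, with Retn called higher at day 1 and day 3. The genes whose profile over the 14 samples was most like that of Fabp4, by Pearson's r of log2 CPM among 11632 genes, were Tmem251 (0.97), Ctla2a (0.95) and Dph5 (0.93). These r values describe samples that share groups and libraries and carry no test.

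Fabp5 gave no call in any comparison. Healthy samples held 385, 346, 332 and 195 CPM, and the day 1 samples 346 and 236 CPM. The values at day 3 were 660, 644, 417 and 191 CPM, and those at day 7 were 277, 312, 434 and 309 CPM. Ranges of all 4 groups overlapped, and day 3 replicates 1 and 2 were the highest of the series. The log2 fold change at day 3 was 0.60 (SE 0.34, edgeR adjusted p = 0.328), with a 95% interval from -0.06 to 1.27. At day 1 it was -0.11, with an interval from -0.93 to 0.70. The gene most like Fabp5 was Gm6166 (r = 0.98), the locus that shares sequence with it, whose CPM was 19.5 to 25.6% of that of Fabp5 in every sample. Adding the 2 gave 389 ± 102 CPM in healthy and 585 ± 270 CPM in day 3 samples (SD, n = 4).

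Fabp1 (ENSMUSG00000054422, chr6:71199827-71205023, plus strand) is the hepatocyte form, and its level differed greatly among healthy samples. They held 39.7, 27.8, 58.5 and 1033 CPM. Samples of day 1 held 2.05 and 9.11 CPM. Day 3 samples held 260, 386, 538 and 132 CPM, and those of day 7 held 265, 409, 89.5 and 457 CPM. Both day 1 samples lay below all others, and all 8 later samples lay between healthy replicates 1 to 3 and healthy replicate 4. No call was made: the log2 fold change was -5.70 at day 1 (SE 1.67, edgeR adjusted p = 0.0769), 0.18 at day 3 (SE 0.99) and 0.07 at day 7 (SE 0.99). Without healthy replicate 4, the healthy mean was 42.0 ± 15.5 CPM (n = 3), the day 1 value was -2.93 (edgeR adjusted p = 0.0803), and Fabp1 was called higher at day 3 (log2 fold change 2.86, edgeR adjusted p = 0.0314) and at day 7 (2.89, edgeR adjusted p = 0.0323). The all-gene fit by DESeq2 called the day 1 difference (adjusted p = 0.000396).

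Fabp1 was set beside Alb, the albumin gene of hepatocytes. In healthy samples Alb ranged from 68.8 to 2611 CPM while the ratio of Fabp1 to Alb was 0.415, 0.405, 0.471 and 0.396. It was 0.166 and 0.152 at day 1. It was 1.06, 0.669, 0.446 and 0.141 at day 3 and 0.183, 0.152, 0.318 and 0.598 at day 7. The ratio was nearly constant in healthy samples, below them at day 1, and spread to both sides of them later. The hepatocyte genes Apoa1 and Apoa2 also lay below their healthy ratio to Alb at day 1. Apoa1 was at 0.357 and 0.313 against 0.474 to 0.633, and Apoa2 at 0.320 and 0.289 against 0.511 to 0.668. Lipc went the other way, at 0.0262 and 0.00883 against 0.00622 to 0.00856. No further hepatocyte gene was set beside Alb. The hepatocyte marker sum was 39.2 and 177 CPM at day 1, 1010 to 3430 CPM at day 3 and 982 to 8170 CPM at day 7, and none of its 12 genes was called by edgeR at any day. At day 1, 11 of the 12 had an unadjusted p under 0.05 and 11 were called by DESeq2, and both counts were 0 at day 3 and day 7. The 3 profiles most like Fabp1 were those of the liver genes Apoc3 (r = 0.99), Apoc4 (0.98) and Hao1 (0.98). The part of hepatocyte RNA in the Fabp1 level was not tested.

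Cd36 (ENSMUSG00000002944, chr5:17781690-17888801, minus strand), the fatty acid translocase, gave no call in any comparison. Healthy samples held 788, 704, 752 and 488 CPM. On day 1 the samples held 662 and 666 CPM, and those of day 3 held 744, 503, 1029 and 906 CPM. At day 7, replicate 1 held 1025 CPM and the other samples 522, 545 and 605 CPM. All groups overlapped the healthy range. The 95% intervals of the log2 fold change ran from -0.68 to 0.60 at day 1, from -0.30 to 0.74 at day 3 and from -0.54 to 0.50 at day 7. The most alike profiles were those of Cenpl (r = 0.79), Gins3 (0.76) and Mtch1 (0.76).

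Gpihbp1 (ENSMUSG00000022579, chr15:75596628-75599481, plus strand), which encodes the endothelial anchor of LPL, had a lower mean at each later time. Healthy samples held 4622, 3279, 3060 and 2523 CPM. The day 1 samples held 2110 and 3086 CPM. Day 3 samples held 2516, 2800, 1873 and 1208 CPM. The healthy range was overlapped by 1 sample at day 1 and by 1 at day 3. At day 7, the samples held 1185, 765, 1340 and 1229 CPM, and all 4 lay below it. Gpihbp1 fell by 1.58 on the log2 scale at day 7 (SE 0.29, edgeR adjusted p = 0.014), 2.98-fold lower than healthy. At day 1 and day 3, the log2 fold changes of -0.38 (SE 0.36, adjusted p = 0.673) and -0.68 (SE 0.29, adjusted p = 0.178) from edgeR were not called. The day 7 call was lost without healthy replicate 1 (edgeR adjusted p = 0.0556) or without day 7 replicate 2 (0.053). The mean sum of the LSEC markers was 20700 ± 2090 CPM in healthy and 14000 ± 1920 CPM in day 7 samples, with none of the 12 called by edgeR at day 7 (5 with an unadjusted p under 0.05, 3 called by DESeq2), and their part in the Gpihbp1 level was not tested. No share of all genes by DESeq2 or at the unadjusted threshold is given here for day 7. The most alike profiles were those of Snu13 (r = 0.96), 2410004B18Rik (0.95) and Gm5616 (0.95).

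Lpl (ENSMUSG00000015568, chr8:68880491-68907448, plus strand), the lipase that GPIHBP1 holds, changed in the other direction. Healthy samples held 11.7, 39.98, 48.6 and 27.5 CPM, the lowest in replicate 1. At day 1 they held 101 and 49.0 CPM. At day 3, the values were 504, 379, 232 and 217 CPM, and at day 7 they were 292, 519, 432 and 199 CPM. All samples of days 3 and 7 lay above all of the healthy and day 1 samples. Lpl was 10.4-fold higher at day 3 (log2 fold change 3.38, SE 0.48, edgeR adjusted p = 0.0021) and 11.3-fold higher at day 7 (3.50, SE 0.48, edgeR adjusted p = 0.00481). At day 1, the log2 fold change was 1.23 (SE 0.51, edgeR adjusted p = 0.225). The calls at days 3 and 7 held in all alternatives tried, each sample left out in turn included.

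The markers of lipid-associated macrophages, cells that take up lipid in injured tissue, were also higher after injury. From day 3 to day 7 their mean sum went from 1590 to 4070 CPM, while the mean of Lpl was 332.9 and 360.5 CPM. The 8 markers summed to 188 to 235 CPM in healthy, 463 and 946 CPM in day 1, 817 to 2210 CPM in day 3 and 1420 to 7410 CPM in day 7 samples. Of the 8, 3 were called higher at day 1, 6 at day 3 and 8 at day 7. Trem2, a defining receptor of these cells, was 3.84 ± 1.78 CPM in healthy and 69.9 ± 36.2 CPM in day 3 samples (SD, n = 4), and its profile was among the 3 most like that of Lpl (r = 0.99), with Syngr1 (0.99) and Myof (0.98). Gpnmb, another of the 8, ran opposite to Lpl within day 3. It held 94.1, 110, 132 and 287 CPM, beside Lpl at 504, 379, 232 and 217 CPM. Single values of the other markers on this list are not shown. The sort had selected against F480 and CD45, antigens of macrophages and leukocytes. Hepatic stellate cell markers summed to 151 to 274 CPM in healthy and 848 to 2680 CPM in day 3 samples, with 10 of 12 called higher at day 3 and 11 at day 7. Kupffer cell and macrophage markers, low in the healthy sample with the least Lpl, gave 1 call of 12 at each day. The part of these cell types in the Lpl level was not tested.

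**Figure D3:**
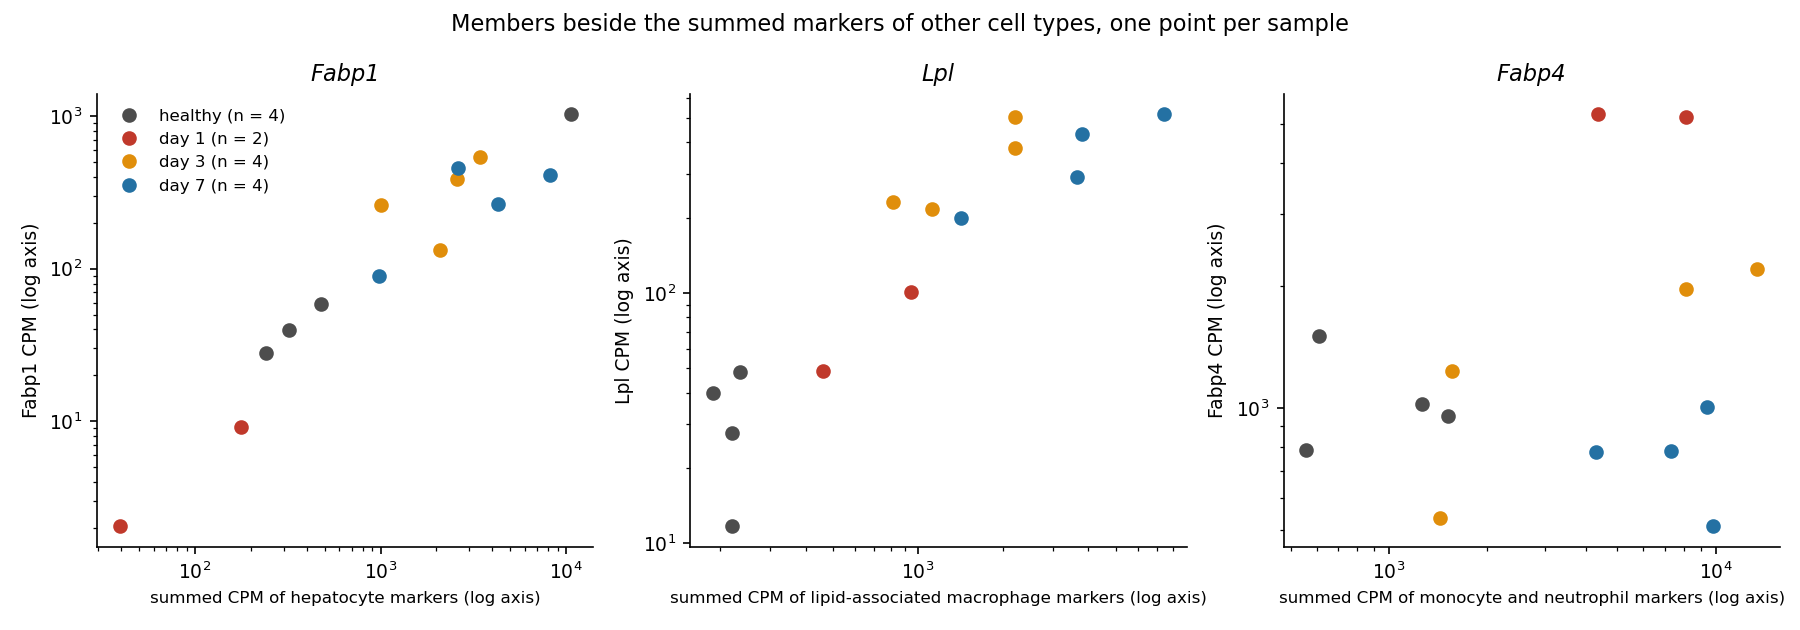
Fabp1, Lpl and Fabp4 in CPM against the summed CPM of hepatocyte, lipid-associated macrophage and monocyte and neutrophil markers, all on log axes, with 1 point per sample. Fabp1 and Lpl were highest where their marker sum was highest, 10600 and 7410 CPM. In each panel, some samples stood above samples with larger marker sums. For Fabp4 these included the 2 day 1 samples. For Fabp1 they included day 3 replicate 3, with 538 CPM at a sum of 3430 CPM. For Lpl they included day 3 replicate 1, with 504 CPM at a sum of 2210 CPM.

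The other 2 lipases were near the low end of the levels. Lipc (ENSMUSG00000032207, chr9:70798128-70952226, minus strand) held 0.818, 0.505, 0.967 and 16.2 CPM in healthy samples. It held 0.323 and 0.528 CPM at day 1. At day 3 it held 1.02, 1.04, 3.19 and 1.95 CPM, and at day 7 it held 6.82, 8.06, 2.05 and 5.42 CPM. Healthy replicate 4, the sample with the highest hepatocyte marker sum, was the highest of all, and the day 7 samples lay above the other 3 healthy ones. At day 1 the log2 fold change was -3.44 (SE 1.36, edgeR adjusted p = 0.196), which DESeq2 called (adjusted p = 0.0147) and which was -0.86 without healthy replicate 4 (edgeR adjusted p = 0.659). At day 3 it was -1.36 (SE 0.93), and 1.17 without that sample, neither called. At day 7 the log2 fold change was 0.27 (SE 0.92, edgeR adjusted p = 0.9), and without healthy replicate 4 it was 2.91 (edgeR adjusted p = 0.0225). The most alike profiles, Agt, Acaa1b and Gls2 (each r = 0.98), are of liver genes. Lipc overlaps the genes Gm25149, Gm3436 and Gm32017 without shared exon bases.

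Lipg (ENSMUSG00000053846, chr18:74939322-74961263, minus strand), the endothelial lipase gene, held 1.75, 0.705, 0.655 and 0.858 CPM in healthy samples. At day 1 it held 4.29 and 0.462 CPM. At day 3 it held 1.00, 0.732, 0.492 and 0.0955 CPM, and at day 7 it held 1.2, 1.33, 2.21 and 3.03 CPM. The first of the day 1 samples was the highest of the series and the other was the lowest but for a day 3 sample. No comparison was called, and the log2 fold change at day 1 was 1.26 (SE 0.82, edgeR adjusted p = 0.483). The sign at day 1 turned to -1.12 without day 1 replicate 1. Kif3b, Znrf2 and Tmem170b (each r = 0.80) were the most alike profiles.

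Pparg (ENSMUSG00000000440, chr6:115360951-115490399, plus strand), the receptor gene upstream of Fabp4, Cd36 and Plin2 in fat cells and macrophages, rose early and stayed up at day 3. Healthy samples held 13.4, 12.1, 12.8 and 9.51 CPM. Those of day 1 held 38.9 and 24.6 CPM, and those of day 3 held 29.3, 20.1, 31.8 and 27.8 CPM. At day 7 they held 22.5, 15.9, 15.5 and 14.01 CPM. All 10 samples after injury lay above all 4 healthy ones. It was 2.66-fold higher at day 1 (log2 fold change 1.41, SE 0.26, edgeR adjusted p = 0.00817) and 2.28-fold higher at day 3 (1.19, SE 0.22, edgeR adjusted p = 0.00788). At day 7 the log2 fold change of 0.51 (SE 0.22, edgeR adjusted p = 0.211) was not called. The day 1 call was lost without day 1 replicate 1 (log2 fold change 1.02, edgeR adjusted p = 0.374), and the day 3 call without healthy replicate 4 (1.00, edgeR adjusted p = 0.0508). Mthfd2 (r = 0.92), Hnrnpa1 (0.92) and Steap1 (0.91) had the most alike profiles. An antisense gene, Gm44079, lies within Pparg without shared exon bases.

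Plin2 (ENSMUSG00000028494, chr4:86648386-86670060, minus strand), the droplet coat gene whose upstream sequence is shown above, was highest at day 1. Healthy samples held 196, 200, 198 and 269 CPM. Those of day 1 held 923 and 635 CPM. Both lay above all other samples. At day 3 the values were 571, 533, 313 and 290 CPM, and at day 7 they were 288, 333, 250 and 241 CPM. All day 3 samples lay above the healthy ones, the nearest by 290 against 269 CPM, and the day 7 samples overlapped healthy replicate 4 only. Plin2 was 3.61-fold higher at day 1 (log2 fold change 1.85, SE 0.28, edgeR adjusted p = 0.00252) and 1.98-fold higher at day 3 (0.98, SE 0.24, edgeR adjusted p = 0.0276). The day 1 call was lost without day 1 replicate 1 (edgeR adjusted p = 0.0747). The day 3 call was lost in 13 of 22 alternatives, among them 10 of the 14 samples left out in turn, the replicate block (edgeR adjusted p = 0.0539) and a fit of the 2 groups alone (0.0857), with a log2 fold change of at least 0.72 in each. At day 3 the 2 samples with more Plin2 were those with more monocyte and neutrophil markers, and the part of such cells was not tested. The most alike profiles were those of Slc7a11 (r = 0.95), Cd300lf (0.95) and Glipr2 (0.94).

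**Figure D4:**
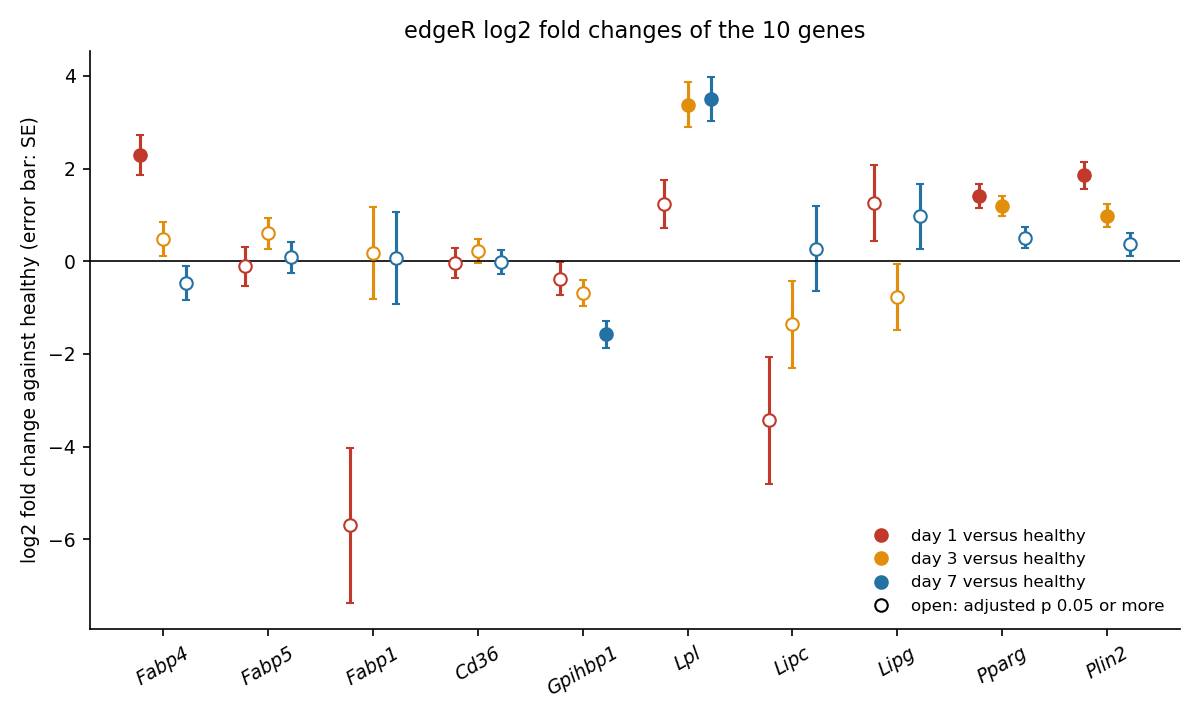
Log2 fold change of each gene against healthy LSECs at day 1, day 3 and day 7 from edgeR, where error bars show the SE and open points had an adjusted p of 0.05 or more. Fabp4, Pparg and Plin2 stood highest at day 1, Lpl at days 3 and 7 with 3.38 and 3.50, and Gpihbp1 was the only called fall with -1.58.

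Between successive times, 1 of the 10 genes was called from day 1 to day 3, the fall of Fabp4, where 2.54% of all genes were called. None was called from day 3 to day 7, where 1.77% of all genes were called by edgeR. At an unadjusted p under 0.05, 5 of the 10 genes passed in each of these comparisons, and DESeq2 called 3 and 1. No share of all genes stands beside these counts, so they say nothing particular to the 10 genes. From day 3 to day 7, the 5 were falls by 0.95 for Fabp4, 0.89 for Gpihbp1, 0.68 for Pparg and 0.62 for Plin2 on the log2 scale and a difference of 1.74 for Lipg in the other direction (edgeR adjusted p from 0.14 to 0.221). Without day 3 replicate 4, Fabp4 and Gpihbp1 were called lower at day 7 than at day 3 (edgeR adjusted p = 0.0247 and 0.0321). Lpl differed by 0.11 between these days (SE 0.43).

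Genes around these 10 were read from 9 pathway lists. Of the other fatty acid and retinoid binding proteins, 8 of 11 were tested. Fabp3, the heart form, was called higher at day 3 by 6.20 (SE 1.02) and the retinoic acid carrier Crabp2 by 4.15 (SE 1.17) on the log2 scale. Their levels at day 3 were 5.19 ± 4.79 and 0.258 ± 0.045 CPM (SD, n = 4). In healthy samples they were 0.0683 ± 0.0555 and 0.0128 ± 0.0155 CPM (SD, n = 4). The healthy mean of Crabp2 was under the limit of 3 counts, so the size of its change is uncertain. Fabp3 was also called at day 7.

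In the list of fatty acid transport and activation, 11 of 12 genes were tested. Slc27a1, a fatty acid transporter, was called higher at all 3 days and rose from 2.30 ± 0.84 CPM in healthy to 10.9 ± 4.19, 13.7 ± 5.85 and 14.3 ± 6.06 CPM. Acsl4, which activates arachidonic acid, was called at day 1 only (log2 fold change 0.88, SE 0.19). None was called lower.

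Among the 10 regulators of LPL, Angptl8 was called lower at day 1 (log2 fold change -4.33, SE 1.07) and none was called higher. Its samples held 1.19, 2.16, 3.22 and 16.3 CPM in the healthy group and 0.179 and 0.385 CPM at day 1. Both day 1 samples lay below all healthy ones, and the highest was healthy replicate 4, which also led in hepatocyte markers. Those markers were at 39.2 and 177 CPM at day 1, and their part was not tested. Without healthy replicate 4, the log2 fold change was -2.98 (edgeR adjusted p = 0.0287). The call was lost without either day 1 sample, with log2 fold changes of -3.96 and -5.05. It was also lost with the replicate block (edgeR adjusted p = 0.118) and in a fit of the 2 groups alone (0.0978). The same held without day 7 replicate 1, 3 or 4 (edgeR adjusted p = 0.0505, 0.0543 and 0.0552). Of 8 lipoprotein receptors, Olr1, the receptor of oxidized LDL, was called higher at all 3 days, from 0.447 ± 0.212 CPM in healthy to 12.7 ± 3.37 CPM at day 1 (n = 2). The endocytic receptor gene Lrp1 was called higher at days 3 and 7, by 2.72 (SE 0.55) and 2.68 (SE 0.55) on the log2 scale. No receptor of this list was called lower.

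None of the 14 other genes of lipid droplets was called by edgeR at any day, where 4.06%, 7.19% and 3.18% of all genes were called. At an unadjusted p under 0.05, 6, 1 and 1 of the 14 passed at days 1, 3 and 7, and DESeq2 called 3, 1 and 0. Their summed level was 315 to 347 CPM in healthy samples and 755 and 532 CPM at day 1. At day 3 it was 728, 731, 315 and 256 CPM, and at day 7 it was 284 to 375 CPM. Both day 1 samples and day 3 replicates 1 and 2 lay above the healthy range of the sum, and the median log2 fold change of the 14 genes at day 1 was 0.33. Of 6 intracellular lipases, Pnpla2, which starts droplet breakdown, was called higher at day 1 only, from 82.2 ± 10.2 to 204 ± 17.7 CPM. Of 13 genes of fatty acid oxidation, the carnitine carrier gene Slc25a20 and Ucp2 were called higher at day 1 only, Ucp2 from 421 ± 105 to 1500 ± 158 CPM. Of 13 nuclear receptors and cofactors, Cebpb was called higher at day 1 (log2 fold change 1.83, SE 0.43) and Rxrg, a partner of PPARγ, lower at day 3 (-1.82, SE 0.36) and day 7 (-1.54, SE 0.35).

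Caveolae are membrane pits in which CD36 is found in other endothelia. Of their 6 genes, Cav2 was called lower at all 3 days, from 338 ± 27.5 CPM in healthy to 131 ± 36.6 CPM at day 1, 103 ± 23.9 CPM at day 3 and 147 ± 56.8 CPM at day 7. Cavin2 was called lower at day 1 and day 3, from 1040 ± 111 to 433 ± 91.3 and 488 ± 66.2 CPM. Cavin3 was called higher at day 3 and Ehd2 at days 3 and 7, both at 12.9 CPM or less in any group mean.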

How the data were processed

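RNA-seq of sorted LSECs was analysed for 14 samples in 4 groups taken from the sample labels. The file deposited by the authors holds unnormalized counts of reads as whole numbers, by Ensembl gene. Per the submitters' processing notes and the study's methods, reads were mapped with STAR to GRCm38 and assembled with StringTie. The annotation release, the strand setting and how whole counts arose were not given in the sources used here. Libraries came from a full-length kit that does not mark strand.

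Counts were filtered with filterByExpr (minimum count 10, minimum total 15, by group), scaled with TMM and tested with edgeR 4.0.16 (R 4.3.3), quasi-likelihood, in a single model of 4 group means over 14 samples with 5 comparisons. Benjamini-Hochberg adjusted p-values over 26626 genes were called under 0.05. The SE is the absolute log2 fold change over the square root of F, 95% intervals are normal, and CPM used TMM-scaled totals (log2 CPM with prior count 2). The fit was tested on simulated data. DESeq2 1.42.0, other scalings and filters, the replicate number as a block, each sample left out and, chosen after seeing the data, 2 samples left out together were alternatives. Positions and lengths (longest principal transcript) came from GENCODE vM21.

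The 10 genes and all lists were chosen with earlier results of these data known. Named were the 10 genes, up to 3 called genes per pathway list and comparison with healthy by size of change, and the 3 profiles most like each gene (Pearson's r, mean of at least 5 CPM). A called gene of the pathway lists is not reported here. All columns of the deposited table were used.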

Additional observations from a re-analysis of the deposited data

Results flagged for a closer look

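A sample lay far from the other 3 of its group, by Dixon's test at the 95% level, in 4 of the 30 sets of 4 samples examined (10 genes in 3 groups). For a single set of normally spread values, chance gives about 1 in 20. The 30 sets share the same samples and CPM need not be normally spread, so that rate is no measure for the 4. Healthy replicate 4 was the highest in 3 of them: Fabp1 at 1033 CPM (gap 0.969 of the range), Lipc at 16.2 CPM (0.971) and Plin2 at 269 CPM (0.937). This sample also had the highest hepatocyte marker sum, 10600 CPM, and the part of hepatocyte RNA in these values was not tested. Day 7 replicate 1 was the highest of its group for Cd36 at 1025 CPM (0.835). The groups of day 1 (n = 2) could not be examined this way.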

How the results depend on the processing

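Each value was recomputed in up to 22 alternatives. For the 9 calls among the 10 genes, 198 recomputed values kept their direction and 26 of them passed the threshold no longer; of the 41 values that were not called, 20 of 902 recomputed ones became calls and 50 changed sign, the causes of which were not tested. The number of the 10 genes called by DESeq2 was 5 at day 1, 3 from day 1 to day 3 and 1 from day 3 to day 7. The replicate numbers did not pair the samples (18 same-numbered pairs, r of their deviations from -0.232 to 0.0962), and with the replicate block 0 of the 10 genes were called from day 1 to day 3. With 2 samples left out together (healthy and day 3 replicates 4, chosen after seeing the data), 4 were called at day 7, 2 from day 1 to day 3 and 2 from day 3 to day 7. With each sample left out in turn, calls ranged from 0 to 3 at day 1 (0 without day 1 replicate 1), from 1 to 4 at day 7 (1 without healthy replicate 1 or day 7 replicate 2, 4 without healthy replicate 4), from 0 to 2 between days 1 and 3, and from 0 to 2 between days 3 and 7 (2 without day 3 replicate 4). Over all genes, the counts called of 1080, 1915 and 846 at days 1, 3 and 7 ranged from 164 to 2839, 946 to 3791 and 193 to 3156 over the alternatives, and the counts of 676 and 472 between successive times from 49 to 2408 and 1 to 1783. With the replicate block they were 594 at day 1, 435 at day 7, 311 from day 1 to day 3 and 244 from day 3 to day 7. Log2 fold changes near 0 that turned were those of Cd36 at day 7 (0.027 by DESeq2, 0.027 with RLE size factors, 0.080 with library size only, 0.0061 with at least 10 counts in 4 samples) and, without the filter, of Fabp5 (-0.047) and Fabp1 (-0.046) at day 7. With the stricter filter Fabp1 was at 0.010 from day 3 to day 7. With the 2 samples left out, Cd36 was at -0.041 and Lipc at 1.15 at day 3, and Fabp5 at -0.081 at day 7. For Angptl8 at day 3 (-0.15), it was 0.45 with the replicate block, 1.41 with the 2 samples left out and -0.51 to 1.11 with single samples left out. With single samples left out, Fabp5 ranged from -0.44 to 0.12, Cd36 from -0.19 to 0.035 and Lipg from -1.12 to 2.10 at day 1. Fabp1 ranged from -0.39 to 2.86, Cd36 from -0.062 to 0.41 and Lipc from -1.96 to 1.17 at day 3. At day 7, Fabp5 ranged from -0.069 to 0.19, Fabp1 from -0.31 to 2.89, Cd36 from -0.30 to 0.12 and Lipc from -0.10 to 2.91. From day 1 to day 3, Pparg ranged from -0.59 to 0.081 and Lipg from -3.01 to 0.21, and from day 3 to day 7 Fabp1 from -0.29 to 0.43, Cd36 from -0.41 to 0.062 and Lpl from -0.11 to 0.49. Day 1 rests on 2 samples, and leaving out either leaves 1, which is then assumed to vary like the other groups. Lipc and Lipg, with group means of at most 5.59 CPM, had the fewest counts behind their values.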

Other observations

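Angptl4, the gene of a secreted inhibitor of LPL that is a target of the PPAR receptors, was chosen here after its values were seen. Its level was 0.878, 0.764, 0.572 and 20.8 CPM in healthy samples. At day 1 it was 123 and 66.4 CPM. At day 3 it was 14.1, 12.7, 12.8 and 5.62 CPM, and at day 7 it was 7.12, 26.1, 8.0 and 11.9 CPM. Both day 1 samples lay above all others, and healthy replicate 4 lay among the later samples. No call was made by edgeR in the comparison of all samples (log2 fold change 4.04 at day 1, SE 1.15, adjusted p = 0.0689). Without healthy replicate 4, edgeR called it higher at day 1 (log2 fold change 6.98, adjusted p = 0.000125), day 3 (3.82, adjusted p = 0.00451) and day 7 (4.2, adjusted p = 0.00431). That sample had the highest hepatocyte marker sum, and the part of hepatocyte RNA in its Angptl4 level was not tested.

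Lipc was set beside Alb in the same way as Fabp1. The ratio of Lipc to Alb was 0.00856, 0.00734, 0.00778 and 0.00622 in healthy samples. At day 1 it was 0.0262 and 0.00883, both above every healthy sample. It was 0.00412, 0.0018, 0.00264 and 0.00208 at day 3, below every healthy sample. At day 7 it was 0.0047, 0.00299, 0.00728 and 0.00709, which overlapped the healthy range.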
